A study of Arabidopsis thaliana with 9 samples.

Results

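Seedlings of Arabidopsis thaliana carrying the cct-1 mutation were compared with seedlings carrying the gct-2 mutation, both harvested at 9 days. The comparison took the 6 arrays that the labels title as cct-1 or gct-2, 3 of each, out of the 9 arrays of the series, and all 16826 probe sets other than controls. The other 3 arrays were of wild-type Col-0 seedlings, the genetic background of all samples, and are set beside the mutants. Wild type was harvested at 7 days, because leaf primordia reached the chosen size then and at 9 days in the mutants, so genotype and 2 days of age cannot be told apart in any contrast with wild type. Each array was a biological replicate made from the shoots of a pool of 75 to 100 seedlings, and seedlings without cotyledons or leaf primordia were left out, so seedlings lacking them are not represented. Tubes were filled in rotation. The lesions of both alleles are not described in the sources used here.

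CCT is the Arabidopsis MED12 gene and GCT the MED13 gene, and both products belong to the CDK8 module of Mediator. Mediator links DNA-bound transcription factors to RNA polymerase II, and the CDK8 module is a detachable part that contains a kinase, its cyclin, MED12 and MED13. In yeast and animals MED13 is known to join the module to core Mediator and MED12 to activate the kinase. In Arabidopsis both genes are known for their part in the timing of embryo patterning, phase change and flowering. The comparison asked what loss of one or the other does differently.

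A small share of probe sets was called between the mutants, which leaves out differences too small to be detected. Of the 16826 tested, 772 (4.59%) were called, meaning a Benjamini-Hochberg adjusted p under 0.05 in the limma fit, with 413 (2.45%) higher and 359 (2.13%) lower in cct-1. The 3 arrays of one mutant lay beyond the 3 of the other in 25.7% of all probe sets. At an unadjusted p under 0.05 there were 3486 (20.7%). The difference reached 2-fold in 71 of the higher and 91 of the lower probe sets, and the median size of a called difference was 0.71 on the log2 scale. Called probe sets included 425 with a single gene name, and the other 347 could not be named. The number called depended on single arrays. It was 207 without gct-2 replicate 3, 238 without gct-2 replicate 2, 286 without cct-1 replicate 2, 398 without cct-1 replicate 1, 401 without cct-1 replicate 3 and 453 without wild-type replicate 2.

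**Figure D1:**
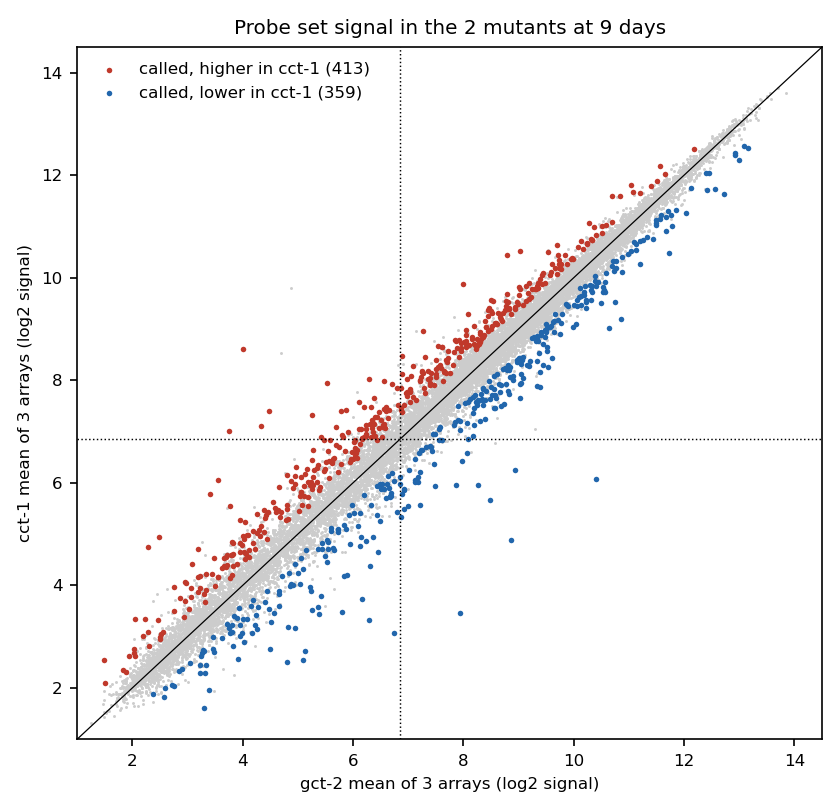
Mean log2 signal of 3 cct-1 arrays against the mean of 3 gct-2 arrays for each of 16826 probe sets, with the 413 called higher in cct-1 in red, the 359 called lower in blue, the rest in grey, and dotted lines at the median 40th percentile of an array. Called probe sets lie along the whole range of signal, and those farthest from the diagonal lie mostly where at least one mutant is below the dotted lines.

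All levels below are log2 signals, and differences are cct-1 minus gct-2 on the same scale. Array medians lay between 7.70 and 7.76. Signals under an array's 40th percentile, which lay between 6.82 and 6.87, are called dim, since nothing in the table shows that they exceed background. Of the called probe sets 268 were dim on all 9 arrays and 363 were dim on none. Where the dimmer mutant was dim on all 3 arrays, a fold is given as "at least", with dim values raised to the percentile. Lists are described by counts of members called and by the median difference, to be read against 4.59% called and a median of 0.02 over all probe sets. In whole shoots fewer cells of a type and less RNA per cell cannot be told apart.

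Mitochondrial probe sets held several of the largest differences, all of them higher in cct-1. Plant mitochondria keep a genome that encodes subunits of the respiratory chain and proteins that attach haem to cytochrome c. In the Col-0 nucleus, chromosome 2 carries a large copy of that genome. All 18 probe sets for 12 mitochondrial genes had a higher mean in cct-1, against 53.8% of all probe sets, with a median difference of 0.37, and 3 of the 18 were called. Of these probe sets 11 were dim on all 9 arrays, among them 2 of the 3 called. For 11 of the 18 the arrays of the mutants did not overlap, against 13.8% of all probe sets in this direction. Of 18 probe sets for loci in the chromosome 2 copy, 9 were called higher in cct-1, 0 were called lower and 16 had a higher mean, with a median difference of 0.45. Of the 18, 17 were dim on all 9 arrays.

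The cytochrome c biogenesis gene ccb452 showed the largest difference among the genes named higher in cct-1. It read 7.14, 7.57 and 7.50 in cct-1, 4.77, 4.17 and 4.47 in gct-2, and 4.49, 5.02 and 4.73 in wild type. The cct-1 arrays stood apart, while gct-2 overlapped wild type. The difference was 2.94 (SE 0.19, limma adjusted p = 0.000408), at least 1.48-fold. AT2G07718, in the chromosome 2 copy, read 8.58, 7.84 and 7.42 in cct-1 and 5.81, 5.31 and 5.44 in gct-2. Its difference was 2.43 (SE 0.26, limma adjusted p = 0.0042), at least 2.16-fold, and wild type (5.89, 6.01 and 5.94) again lay near gct-2. AT2G07741, another locus in the copy, was dim throughout and read 5.62, 6.06 and 5.67 in cct-1, 3.13, 3.76 and 3.35 in gct-2 and 3.64, 3.77 and 3.31 in wild type, a difference of 2.37 (SE 0.19, limma adjusted p = 0.00109).

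nad1, which encodes a subunit of respiratory complex I, had 6 probe sets that differed in size but not in sign. The strongest, dim on every array, read 5.16, 4.87 and 4.81 in cct-1 against 2.31, 2.62 and 2.54 in gct-2 (difference 2.46, SE 0.12, limma adjusted p = 0.000178), and 2.87, 2.77 and 2.65 in wild type. A second was called at 0.72 (adjusted p = 0.0188), and the brightest of the 6 differed by 0.40 (adjusted p = 0.304). Genes for other complex I subunits and for the oxidase that ends the chain were not called. The well-measured nad4 read 10.35, 10.15 and 10.36 in cct-1 and 10.12, 9.92 and 10.01 in gct-2, a difference of 0.27 with arrays that did not overlap (adjusted p = 0.157). cox1, a subunit of that oxidase, differed by 0.34 (adjusted p = 0.164) and cox2 by 0.67 (adjusted p = 0.0527).

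The remaining called loci of the copy differed by 1.12 (AT2G07719), 1.07 (AT2G07777), 1.06 (AT2G07705), 0.96 (AT2G07722), 0.85 (AT2G07707), 0.69 (AT2G07673) and 0.45 (AT2G07732). All 7 were dim on every array, so the sizes are uncertain. Of the 18 probe sets in the copy 13, and the one for ccb452, have identifiers ending in _s_at, which mark probes that match several transcripts, so that the mitochondrial gene and its nuclear copy cannot be told apart. AT2G07777 and AT2G07705 do not carry that ending. ccb452, the strongest nad1 probe set, AT2G07718, AT2G07741, AT2G07777 and AT2G07705 remained called when any 1 of the 9 arrays was left out. The other 5 called loci named above lost their calls in 6 to 8 of those 9 fits, and all of them except AT2G07707 also with the 6 mutant arrays alone. AT2G07707 also lost its call with the replicate number as a block in the fit. AT2G07732 further lost its call in the fit with robust variance and an intensity trend. The second nad1 probe set lost its call without cct-1 replicate 2 or 3 or gct-2 replicate 2 or 3. The number of called loci of the copy was 4 to 7 in those 9 fits.

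**Figure D2:**
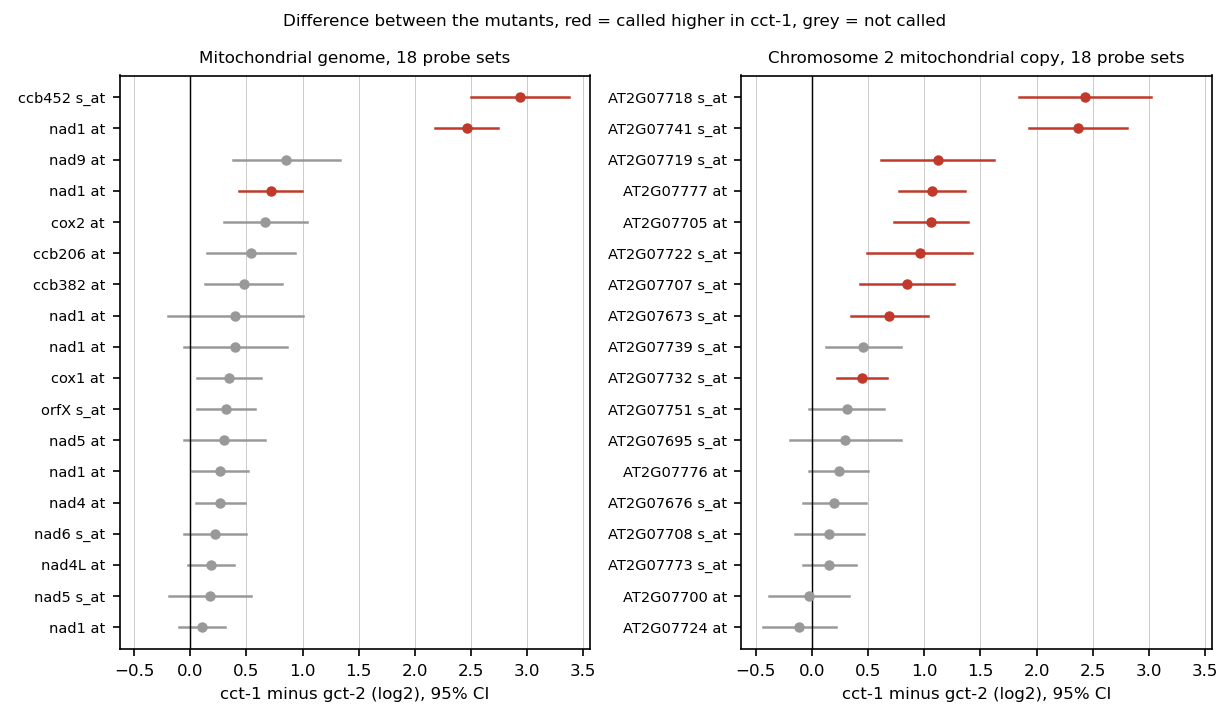
Difference between cct-1 and gct-2 (log2, horizontal axis) with its 95% confidence interval for 18 probe sets of the mitochondrial genome (left) and 18 of the chromosome 2 copy (right), each row labelled by gene and by the ending of the probe set identifier. All 18 points on the left and 16 on the right lie above 0, and the called ones (red) reach 2.94 on the left and 2.43 on the right.

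Factors that act on organelle RNA were described as a group, since RNA of mitochondria and plastids is edited and spliced by nucleus-encoded pentatricopeptide repeat proteins. Of 17 such genes 2 were called, both higher in cct-1, and the median difference was 0.14. PPR596, which encodes such a protein of mitochondria, read 8.70, 8.51 and 8.76 in cct-1, 7.89, 7.66 and 7.29 in gct-2, and 8.47, 8.36 and 8.46 in wild type. Here gct-2 stood below both other genotypes, and the difference between the mutants was 1.04 (SE 0.15, limma adjusted p = 0.00892). OTP81, which encodes a plastid editing factor, read 7.19, 7.06 and 6.90 in cct-1 and 6.25, 6.45 and 5.98 in gct-2 (difference 0.82, adjusted p = 0.0162), at least 1.16-fold. The call of OTP81 was lost without cct-1 replicate 1 or 2 or gct-2 replicate 3.

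Genes for making ribosomes were called in 1 direction, higher in cct-1. Ribosome assembly starts in the nucleolus with RNA polymerase I, and a large set of processing and assembly factors then shapes the ribosomal RNA. Of 16 such genes with a named probe set 15 had a higher mean in cct-1, against 53.8% of all probe sets. Of the 16, 4 were called higher and 0 lower, and the median difference was 0.35. This list was added or corrected after the table was seen, so its counts are a description only. AT3G15460, for an assembly factor with a Brix domain, read 7.57, 7.51 and 7.90 in cct-1, 6.55, 6.60 and 5.98 in gct-2, and 6.97, 6.82 and 7.00 in wild type. Wild type lay between the mutants on every array. The difference was 1.28 (SE 0.17, limma adjusted p = 0.00765), at least 1.76-fold. AT1G52930, a second Brix-domain gene, read 8.58, 8.85 and 8.91 in cct-1 against 8.18, 7.93 and 7.44 in gct-2 (difference 0.93, SE 0.18, adjusted p = 0.0287).

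AT3G18600, for an RNA helicase, read 8.58, 8.74 and 9.05 in cct-1, 8.22, 7.88 and 7.66 in gct-2 and 8.30, 8.30 and 8.29 in wild type, a difference of 0.87 (adjusted p = 0.0227). AT4G04940, for a WD-repeat protein of pre-ribosomal particles, differed by 1.12 (adjusted p = 0.0212), at least 1.06-fold. NRPA2, the second largest subunit of RNA polymerase I, read 7.73, 8.12 and 8.19 against 7.72, 7.44 and 7.39 and was not called (0.50, adjusted p = 0.0765). YAO was the only one of the 16 with a lower mean in cct-1 (difference -0.19, adjusted p = 0.451). AT3G13940, outside this list and also related to RNA polymerase I, was among the largest differences, at 8.37, 8.55 and 8.42 in cct-1 and 7.64, 7.20 and 7.06 in gct-2 (1.14, SE 0.18, adjusted p = 0.0132).

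AT3G15460 remained called in all 9 fits with 1 array left out. AT4G04940 lost its call without cct-1 replicate 1, 2 or 3, AT3G18600 without replicate 2 or 3 of either mutant, and AT1G52930 without those 4 arrays or wild-type replicate 2. These 3 genes also lost their calls in the fit of the 6 mutant arrays alone. AT3G13940 lost its call without cct-1 replicate 2 or gct-2 replicate 2 or 3. The number of genes called in the list ran from 1 to 5 in those fits, all of them higher in cct-1.

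Plastid-encoded genes were called about as often as other probe sets. Of 69 plastid genes 3 were called, all lower in cct-1, a share (4.35%) near the 4.59% of all probe sets, and the median difference was -0.06. The mean was higher in cct-1 for 28 of the 69. The mutants did not overlap in 6 genes higher and 10 lower in cct-1, against 13.8% and 11.9% of all probe sets. The largest difference upward was in petN, for a small subunit of cytochrome b6f, at 6.65, 6.38 and 6.65 in cct-1 and 4.99, 5.37 and 6.31 in gct-2 (1.00, SE 0.35, limma adjusted p = 0.147). The 3 called genes encode small proteins of photosystem II or of its assembly. psbI read 7.27, 7.71 and 7.37 in cct-1, 7.93, 9.03 and 8.69 in gct-2, and 7.89, 7.61 and 7.82 in wild type, a difference of -1.10 (SE 0.25, limma adjusted p = 0.0448). psbN read 8.53, 8.42 and 7.99 against 8.87, 9.10 and 9.14 (-0.72, adjusted p = 0.0368), and psbH 10.28, 10.16 and 10.26 against 10.62, 10.73 and 10.71 (-0.45, adjusted p = 0.0496).

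The other plastid-encoded subunits of photosystem II were not called, and psbA, psbB, psbC and psbD, which encode its core proteins, differed by -0.05, -0.15, 0.02 and -0.16. Plastid genes for photosystem I (5), the NDH complex (10), ATP synthase and cytochrome b6f (12), ribosomal proteins (15) and RNA polymerase (4) had 0 called members, with medians between -0.19 and 0.05. The calls in photosystem II were fragile. Among the 9 fits with 1 array left out, psbI kept its call only without gct-2 replicate 1, psbH only without wild-type replicate 1 or 3, and psbN only when replicate 3 of wild type or replicate 1 of either mutant was left out. With the 6 mutant arrays alone 0 of the 69 plastid genes were called by limma, and psbH was also lost without probe sets ending in _s_at or _x_at.

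Among 7 nuclear photosynthesis genes, LHCB4.2 was called. It encodes an antenna protein of photosystem II and read 12.61, 12.52 and 12.58 in cct-1, 13.09 on all 3 gct-2 arrays, and 12.88, 12.81 and 12.70 in wild type. The difference was -0.52 (SE 0.08, limma adjusted p = 0.012), and it narrowly missed the threshold without gct-2 replicate 3 (adjusted p = 0.0501). Its paralogs LHCB4.1 and LHCB4.3 differed by -0.08 and 0.31 and were not called. PORB, for an enzyme of the light-dependent step of chlorophyll synthesis, read 12.06, 12.08 and 11.96 in cct-1 and 12.48, 12.45 and 12.41 in gct-2 (-0.41, adjusted p = 0.0328), a call that among fits with 1 array left out was kept only without wild-type replicate 1 or 3, and was lost with the 6 mutant arrays alone. GSA1 and CHLM, which act earlier in that pathway, differed by 0.04 and -0.11 and were not called.

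**Figure D3:**
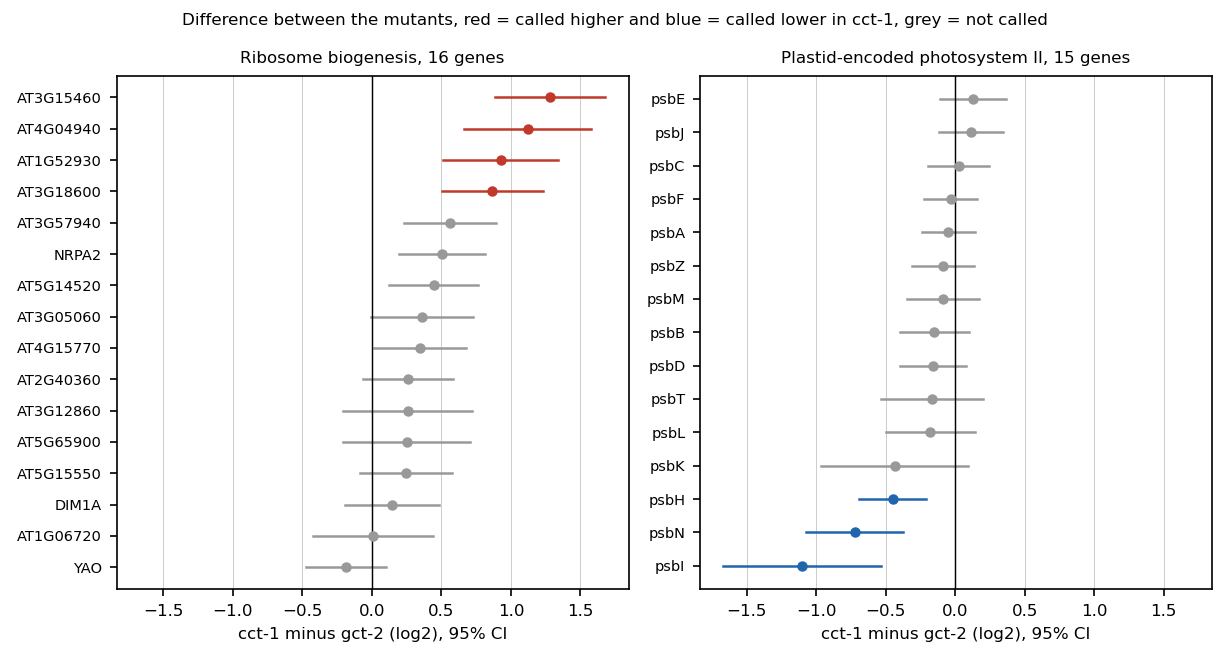
Difference between cct-1 and gct-2 (log2, horizontal axis) with its 95% confidence interval for 16 ribosome biogenesis genes (left) and 15 plastid-encoded photosystem II genes (right). On the left 15 of 16 points lie above 0 and 4 are called higher in cct-1 (red), and on the right 3 are called lower (blue), with psbI lowest at -1.10.

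Clock and light genes showed some of the largest differences, in both directions. The clock of plants sets the daily rhythm of gene expression, and with light signals it controls when a plant flowers. Of 5 clock genes with a named probe set 2 were called, both lower in cct-1. GI encodes a clock protein that promotes flowering in long days. It read 3.21, 3.64 and 2.36 in cct-1, 7.28, 6.77 and 6.19 in gct-2, and 6.04, 4.73 and 4.21 in wild type. The mutants did not overlap and wild type lay between them on all 3 arrays. The difference was -3.67 (SE 0.50, limma adjusted p = 0.00765), but only 1 of the 9 arrays, gct-2 replicate 1, exceeded the 40th percentile, so no fold is given.

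AT1G69570, which encodes a cycling DOF factor, a type of repressor that GI is known to help remove, was also lower in cct-1. It read 3.70, 3.78 and 3.89 in cct-1, 5.00, 5.64 and 5.61 in gct-2, and 5.47, 5.83 and 6.15 in wild type, and was dim throughout (difference -1.62, SE 0.21, adjusted p = 0.00637). TIC, another clock regulator, read 8.07, 8.31 and 8.04 in cct-1 against 8.52, 7.84 and 7.41 and was not called (0.22, adjusted p = 0.687). The flowering list held 25 genes, of which 5 had a named probe set, and none of these except GI was called. FY, LD and AGL18 differed by 0.02, 0.10 and 0.18. AGL24, dim on every array, differed by -0.23 with mutants that did not overlap (adjusted p = 0.239). GI and AT1G69570 remained called in all 9 fits with 1 array left out, and both fell outside the fits restricted to brighter probe sets.

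HYH encodes a bZIP factor that acts beside its homolog HY5 in the response to light. It read 9.12, 8.83 and 8.93 in cct-1, 7.71, 7.18 and 6.93 in gct-2, and 7.71, 7.30 and 7.25 in wild type. The cct-1 arrays stood above both other genotypes, and the difference between the mutants was 1.69 (SE 0.20, limma adjusted p = 0.00584), or 3.22-fold, at a level above the 40th percentile on all 9 arrays. It was the only gene of the light-signalling list with a named probe set, and it was called under all 18 alternatives.

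Flavonoids are pigments and sunscreens whose synthesis is induced by light. Of 6 flavonoid genes 2 were called, both higher in cct-1, and the median difference was 0.51. UGT78D2, for a flavonoid glucosyltransferase, read 9.43, 9.31 and 9.37 in cct-1, 8.64, 8.64 and 8.11 in gct-2, and 7.78, 7.95 and 8.40 in wild type (difference 0.91, SE 0.19, limma adjusted p = 0.0325). CHIL, a chalcone isomerase-like protein, read 9.66, 9.38 and 9.56 in cct-1 and 8.82, 8.99 and 8.48 in gct-2 (0.77, adjusted p = 0.0445). UGT78D1 differed by 0.25 and DFR by 0.44, and neither was called. Among fits with 1 array left out, the call of CHIL was kept only without wild-type replicate 1 or 3, and that of UGT78D2 only without those or gct-2 replicate 1. CHIL also lost its call with the 6 mutant arrays alone, and UGT78D2 with the replicate number as a block in the fit.

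Measured genes for enzymes that inactivate auxin had a higher mean in cct-1, but their calls were not stable. Auxin is stored or removed by linking it to sugars or amino acids. Of 4 such genes 3 were called, all higher in cct-1, and 0 to 2 were called in the fits with 1 array left out. This list too was added or corrected after the table was seen. IAGLU, an indole acetate glucosyltransferase, read 7.07, 6.88 and 7.02 in cct-1, 6.42, 5.65 and 5.64 in gct-2, and 5.65, 5.27 and 5.41 in wild type (difference 1.08, SE 0.20, limma adjusted p = 0.0244), at least 1.11-fold. UGT74D1, another auxin glucosyltransferase, read 7.72, 8.15 and 8.29 in cct-1 and 7.35, 6.97 and 7.36 in gct-2 (0.83, adjusted p = 0.0456). GH3.3, which joins auxin to amino acids, was dim and differed by 0.69 (adjusted p = 0.0496), while WES1 of the same family differed by 0.20 (adjusted p = 0.806). GH3.3 lay below wild type in both mutants, with means of 6.44 in wild type, 5.50 in cct-1 and 4.81 in gct-2. WES1 lay above it in both, at 5.01, 6.85 and 6.65.

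IAA29, which encodes a repressor of auxin response, went the other way. It was dim throughout and read 3.16, 2.30 and 2.97 in cct-1 against 4.17, 3.63 and 3.68 in gct-2 (-1.01, adjusted p = 0.041). IAGLU lost its call without any cct-1 array or gct-2 replicate 2 or 3. Among the 9 fits with 1 array left out, UGT74D1 kept it only without wild-type replicate 2 or cct-1 replicate 1, GH3.3 only without gct-2 replicate 1, and IAA29 only without cct-1 replicate 1. With the 6 mutant arrays alone all 4 lost their calls, and GH3.3 also after quantile normalization and without probe sets ending in _s_at or _x_at.

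Starch and sucrose genes were split. Of 6 genes 2 were called higher and 2 lower in cct-1. DPE1, an enzyme of starch breakdown in the plastid, read 10.78, 10.39 and 10.44 in cct-1, 11.00, 11.16 and 11.23 in gct-2, and 11.12, 11.09 and 11.02 in wild type (difference -0.59, SE 0.12, limma adjusted p = 0.0311). QQS, an orphan gene known to lower starch content, was dim and read 1.96, 3.09 and 2.47 in cct-1, 4.72, 5.16 and 4.52 in gct-2 and 4.60, 4.31 and 5.08 in wild type (-2.30, SE 0.30, adjusted p = 0.00726). For both genes gct-2 lay near wild type and cct-1 below.

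ATSPS4F, a sucrose-phosphate synthase, was higher in cct-1 at 9.97, 9.51 and 9.56 against 8.87, 8.85 and 8.62 in gct-2 (0.90, SE 0.18, adjusted p = 0.0304). The sugar transporter gene SWEET2, dim throughout, read 6.60, 6.68 and 6.64 against 4.85, 5.45 and 5.50 (1.37, SE 0.18, adjusted p = 0.0073). The starch enzymes PWD and SBE2.2 differed by -0.21 and -0.09 and were not called. QQS and SWEET2 remained called in all 9 fits with 1 array left out. DPE1 lost its call with the 6 mutant arrays alone, without wild-type replicate 2 or without replicate 2 or 3 of either mutant, and ATSPS4F without any cct-1 array or gct-2 replicate 2 or 3.

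**Figure D4:**
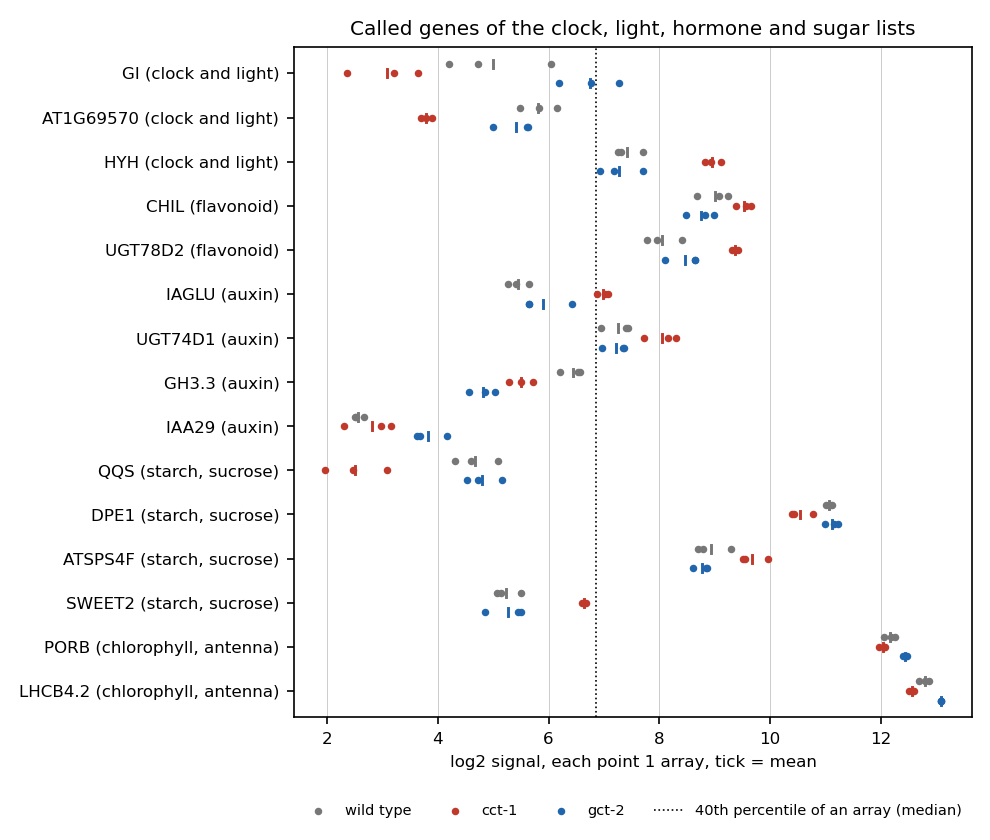
Log2 signal on each array (points, 3 per genotype, with the mean as a tick) of 15 called genes of the clock, light, flavonoid, auxin, starch, sucrose, chlorophyll and antenna lists in wild type (grey), cct-1 (red) and gct-2 (blue), with a dotted line at the median 40th percentile. The genes shown are called ones, and GI, AT1G69570, GH3.3, IAA29, QQS and SWEET2 lie mostly left of the line.

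Of 3 listed defence peptide genes of the thionin family 2 had a named probe set, and both were lower in cct-1. Thionins are small antimicrobial proteins. THI2.2 read 9.12, 9.32 and 9.16 in cct-1, 11.23, 10.80 and 10.55 in gct-2, and 10.22, 9.56 and 9.79 in wild type. Wild type lay between the mutants on all arrays, and the difference was -1.66 (SE 0.20, limma adjusted p = 0.00584), 3.16-fold. AT1G66100, the other measured thionin gene, read 3.52, 3.29 and 2.68 in cct-1, 6.05, 4.51 and 4.29 in gct-2, and 11.09, 10.84 and 10.68 in wild type. It was dim in both mutants, the difference between them was -1.79 (SE 0.42, adjusted p = 0.0488), and the call was kept only without gct-2 replicate 1 among fits with 1 array left out and was lost with the 6 mutant arrays alone.

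Cell wall genes held large single differences without a common direction. AT2G15880, an extensin-like gene, read 5.70, 6.54 and 5.60 in cct-1, 8.85, 7.45 and 8.52 in gct-2, and 7.62, 7.04 and 7.04 in wild type. The difference of -2.33 (SE 0.38, limma adjusted p = 0.0142), at least 2.66-fold, was not called without gct-2 replicate 3 (adjusted p = 0.0628). AT1G05310, a pectinesterase gene outside the list of that family used here, read 6.39, 6.31 and 6.56 in cct-1, 7.64, 8.12 and 8.19 in gct-2, and 6.04, 6.06 and 6.30 in wild type (-1.56, SE 0.15, adjusted p = 0.00244), at least 2.18-fold. Of 12 expansin genes EXLB1 was called, higher in cct-1 by 1.30 (adjusted p = 0.0154). It was dim throughout and lost its call without gct-2 replicate 2 or 3. The lists of 32 xyloglucan endotransglucosylase and 21 pectinesterase genes had 5 and 3 with a named probe set, and 0 were called. The pectinesterase gene ATPMEPCRB, dim throughout, differed by -1.44 (adjusted p = 0.0654).

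Several of the largest differences fell in genes of metabolism and transport. ICDH, which encodes an isocitrate dehydrogenase, read 7.62, 7.21 and 7.46 in cct-1, 5.88, 5.49 and 6.22 in gct-2, and 7.81, 7.63 and 7.32 in wild type. Here cct-1 overlapped wild type and gct-2 stood below (difference 1.57, SE 0.20, limma adjusted p = 0.00637), at least 1.5-fold. AT1G68570, for the transporter NPF3.1, was also lowest in gct-2, at 7.61, 8.22 and 7.94 in cct-1, 6.68, 6.76 and 6.67 in gct-2 and 8.24, 8.32 and 8.50 in wild type (1.22, SE 0.15, adjusted p = 0.00584), at least 2.12-fold. OASA2, of the family that makes cysteine, read 5.78, 5.95 and 4.88 in cct-1, 6.85, 6.99 and 7.14 in gct-2, and 3.85, 3.66 and 3.79 in wild type. Both mutants lay above wild type, and gct-2 above cct-1 (-1.45, SE 0.24, adjusted p = 0.0155), at least 1.1-fold.

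AT1G31950, a terpene synthase gene, read 7.75, 7.54 and 7.33 in cct-1, 8.43, 8.76 and 9.00 in gct-2, and 7.20, 7.33 and 7.79 in wild type (-1.19, adjusted p = 0.0143). Among 28 UDP-glycosyltransferase genes 2 were called higher and 1 lower, with a median difference of -0.01. Beside UGT78D2 and UGT74D1 this was UGT72E1, a glucosyltransferase of lignin precursors, which was lower in cct-1 at 5.57, 5.46 and 4.96 against 7.02, 6.44 and 7.15 in gct-2 (-1.54, adjusted p = 0.00758). Of 244 cytochrome P450 and 44 beta-glucosidase genes listed, 12 each had a named probe set, and 0 were called. The 12 P450 genes were mostly of the CYP71B group. Of these 12, 2 had a higher mean in cct-1, and the median difference was -0.25. CYP71B26 read 6.93, 7.30 and 6.10 in cct-1 and 9.19, 8.42 and 8.09 in gct-2, without reaching a call (-1.79, adjusted p = 0.0641). OASA2 lost its call without gct-2 replicate 2 or 3, and AT1G31950 without those or cct-1 replicate 2.

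Genes without a role given here made up the rest of the 12 largest differences in each direction. AT3G28270 read 9.88, 9.76 and 10.00 in cct-1, 8.12, 7.97 and 7.87 in gct-2, and 9.59, 9.33 and 9.18 in wild type, so that gct-2 stood apart (difference 1.89, SE 0.13, limma adjusted p = 0.000408). AT5G64180 read 9.09, 8.92 and 9.02 in cct-1, 10.55, 10.66 and 10.69 in gct-2, and 9.94, 9.75 and 9.67 in wild type (-1.62, SE 0.10, adjusted p = 0.000376). Both were well above the 40th percentile on all arrays and were called under all 18 alternatives. AT5G42760 (1.73), AT3G56290 (1.58), AT1G69760 (1.28) and GLC (1.22) were higher in cct-1. AT1G11210 (-1.49), AT2G15960 (-1.23), AT1G19310 (-1.22), AT1G33970 (-1.21), AT1G07750 (-1.17) and AT4G16770 (-1.11) were lower.

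Wild type had a different place in different genes of that group. AT1G69760 read 8.99, 8.59 and 8.22 in wild type, 7.35, 7.71 and 7.39 in cct-1 and 6.08, 6.21 and 6.31 in gct-2, and so was below wild type in both mutants and lowest in gct-2. AT3G56290 read 6.35, 6.30 and 6.42 in wild type, 8.69, 8.06 and 8.67 in cct-1 and 7.14, 6.91 and 6.63 in gct-2, and so was above wild type in both and highest in cct-1. Of the 24 genes in the 12 largest differences each way, 16 remained called whichever array was left out. In this group of genes GLC lost its call without cct-1 replicate 1 or 3 or gct-2 replicate 2, AT1G11210 without those or gct-2 replicate 3, AT2G15960 without those 4 or wild-type replicate 2 (adjusted p up to 0.132), and AT4G16770 without cct-1 replicate 2 or gct-2 replicate 2 or 3. AT2G15960 and AT4G16770 also lost their calls with the 6 mutant arrays alone.

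**Figure D5:**
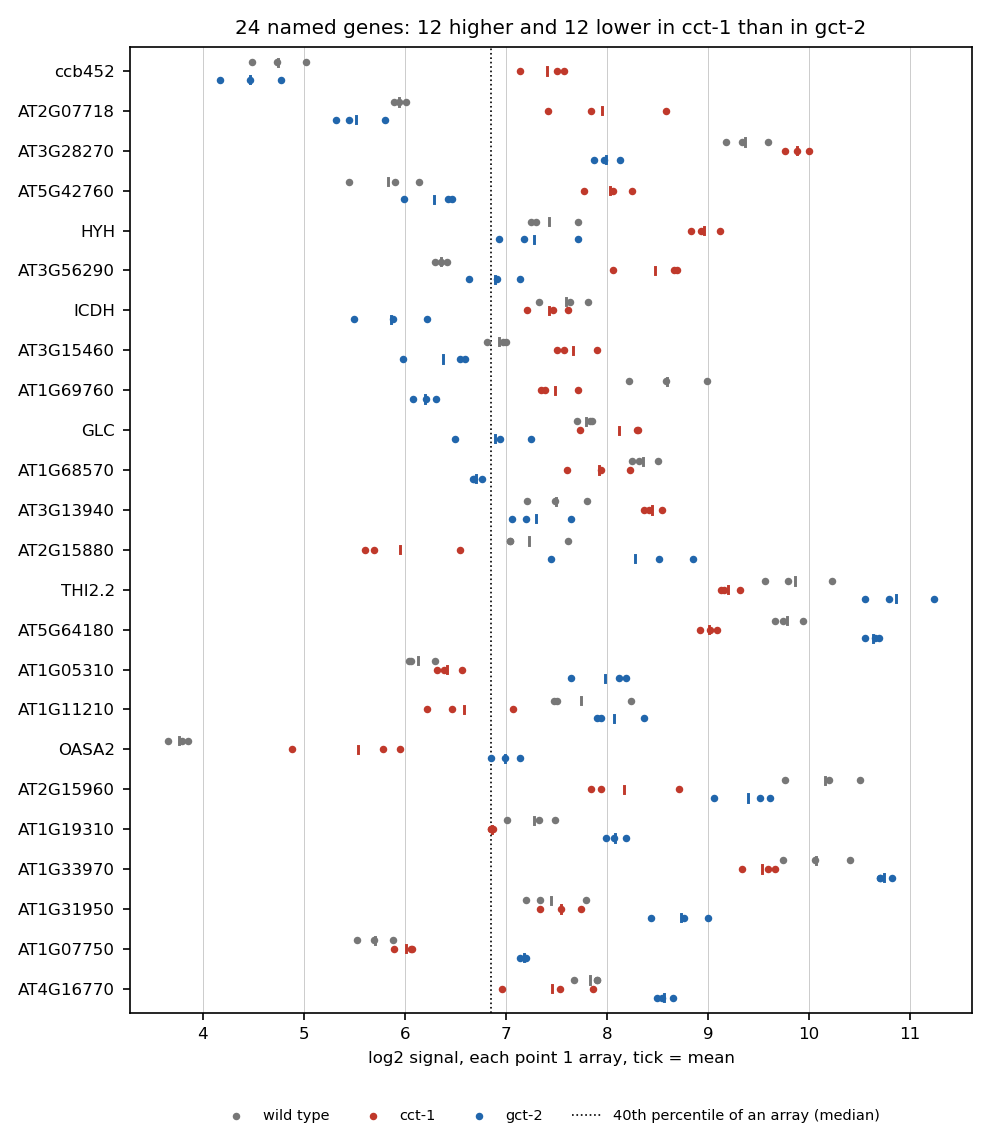
Log2 signal on each array (points, 3 per genotype, with the mean as a tick) of the 12 named genes with the largest difference in each direction, in wild type (grey), cct-1 (red) and gct-2 (blue), with a dotted line at the median 40th percentile. Genes were chosen so that red and blue points do not overlap, and the grey points lie near red in some, near blue in others and beyond both in genes such as AT1G69760, AT3G56290, AT2G15960 and OASA2.

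Many gene groups did not differ detectably between the mutants. Of 46 lists with a named probe set 26 had no called member by limma. Of their 136 members 19 (14%) had an unadjusted p under 0.05. These lists were picked for having no called member, while the 20.7% of all probe sets includes the called ones. The shares therefore cannot be compared. The cyclin C loci AT5G48640 and AT5G48630, the only members of the CDK8 module with a named probe set, read 8.47, 8.76 and 8.43 and 9.16, 9.61 and 9.56 in cct-1, and 8.66, 8.66 and 8.47 and 9.40, 9.40 and 9.52 in gct-2. They differed by -0.04 (95% CI from -0.29 to 0.20) and 0.00 (95% CI from -0.31 to 0.31). Of 13 core Mediator genes 0 were called, with differences between -0.32 (MED9) and 0.49 (AT1G23230, adjusted p = 0.07). CCT and GCT themselves have no named probe set and were not analysed here, so the targeted genes give no check of the labels.

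Among phase change genes SMZ and SNZ differed by -0.19 and -0.15, and the seed genes AT3G02480 and AT3G01570 by 1.17 and -0.83, with wide spread between arrays. AT3G02480 ran from 6.84 to 10.31 in cct-1 and from 6.61 to 7.70 in gct-2, and AT3G01570 from 3.79 to 7.39 and from 4.11 to 7.94. The iron-deficiency genes BHLH101, PYE and AT1G47400 differed by -0.37, -0.29 and -0.12, less than their spread between arrays of a mutant. In cell division the replication gene PRL (MCM7) read 9.40, 9.54 and 9.14 in cct-1 and 8.97, 8.81 and 8.77 in gct-2, and fell just short of a call (0.51, adjusted p = 0.0529), while the Aurora kinase genes AUR1, AUR2 and AUR3 differed by 0.10, 0.04 and 0.36. COR47, induced by cold, differed by -0.38 (adjusted p = 0.0865). Reference genes PEX4, AT4G34270 and AT2G28390 differed by -0.10, -0.13 and -0.04.

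The arrays of the mutants resembled each other closely. Pearson's r over probe sets, given as a description, was 0.9907 to 0.9955 within a mutant and 0.9859 to 0.9898 between cct-1 and gct-2. The 7 nuclear photosynthesis genes read from 7.84 to 13.58 on the mutant arrays. The root marker PYK10, the only one of 11 root markers with a named probe set, read between 12.07 and 12.31 on all 6 mutant arrays (difference 0.06). The stomatal genes SPCH, MUTE and FMA differed by 0.38, 0.32 and -0.08 and were not called, and markers of flowers and vascular tissue had no named probe set. The signal from the 3' end minus that from the 5' end of control transcripts, a measure of RNA integrity, differed by 0.10 for actin, 0.06 for GAPDH and 0.08 for ubiquitin (two-sided exact permutation p = 0.4, 0.9 and 0.2, with 0.1 the smallest that 20 splits allow).

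Called probe sets were spread over all chromosomes. The share called was 5.27% on chromosome 1, 3.87% on chromosome 2, 4.88% on chromosome 3, 4.43% on chromosome 4 and 3.84% on chromosome 5. Around CCT, between AT4G00010 and AT4G02000, 3 of 75 probe sets were called, and around GCT, between AT1G54000 and AT1G56500, 6 of 83. ICDH lies in the latter stretch.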

How the data were processed

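Above-ground parts of seedlings were profiled on Affymetrix arrays, 3 per genotype, and groups, replicates and ages came from the labels. The deposited values are log2 signals per probe set, used as deposited. GCRMA and MAS5 are named per the submitters' processing notes, without role or version, and their roles are not given in the sources used here. That the scale is log2 was read from the values.

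All 9 arrays entered one limma 3.58.1 fit in R 4.3.3 (lmFit, eBayes) with 3 genotype means and no filter, and cct-1 was contrasted with gct-2. Adjusted p-values cover all 16826 probe sets. Precision is limited by having 3 arrays per genotype (median standard error 0.13). On simulated data with 16826 probe sets, 25.4% of 67 changed by 0.5 on the log2 scale were recovered, 79.1% of 67 changed by 1 and 93.9% of 66 changed by 2, and 8 of 140 called were unchanged. The simulation changed only those probe sets, fewer than the 772 called in the data, and drew independent noise. Its rates therefore need not hold for the data. Any 2 arrays shared identical values in 227 to 371 probe sets, so no array was a copy of another.

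Of the probe sets 9335 had 1 gene, 351 several and 7140 none in the platform annotation, updated through RefSeq (TAIR10.1), where 9291 matched and 44 did not. Where probe sets shared a gene, the one with the highest mean stood for it. Named were the 12 largest called differences each way among genes with 1 probe set per gene, with mutants not overlapping and the brighter mutant above the 40th percentile on all 3 arrays, and up to 4 called members per list, while thionin, CDK8-module, organelle and chromosome 2 copy genes were described in any case. Members and lists were chosen with earlier results of these data known, and 17 of 56 lists were added or corrected after the table was seen. These were the ribosome biogenesis, auxin inactivation, clock, light-signalling, chlorophyll, flavonoid, starch and sucrose, thionin, organelle RNA, mitochondrial genome and plastid-encoded lists. 10 lists had no named probe set.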

Additional observations from a re-analysis of the deposited data

How the results depend on the processing

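Limits first: in the simulation 3 arrays per genotype recovered few changes of 0.5 on the log2 scale, dim probe sets have differences of uncertain size, and 9335 of 16826 probe sets carry a single gene name. The main count of 772 called became 664 (465 of them shared) with a 40th percentile filter, 803 with quantile normalization, 795 with median centring, 1033 with an intensity trend and robust variance and 720 without probe sets ending in _s_at or _x_at. It was 486 with a 60th percentile filter, 413 with the 6 mutant arrays alone, 1219 with array weights, 118 at an adjusted p under 0.01 and 162 with at least 2-fold, and leaving out 1 array gave 207 to 680. The share higher in cct-1, 53.5%, was 47.1% after quantile normalization, 46.9% after median centring and 61.8% without gct-2 replicate 1. With the replicate number as a block 430 were called, and several named calls were lost. Among them were UGT78D2, UGT74D1, GH3.3, IAA29, PORB, DPE1, psbN, psbH, psbI and TRY. AT3G18600, AT1G52930, AT2G15960, AT2G07707, AT2G07719, AT2G07673, AT2G07732 and the second nad1 probe set were lost as well. Same-numbered arrays showed no pairing, since the correlations of their deviations from the genotype means ran from -0.28 to 0.1. Some differently numbered arrays correlated more. The value was 0.29 for cct-1 replicate 1 with gct-2 replicate 2, and 0.27 for cct-1 replicate 2 with gct-2 replicate 1. A block by replicate number does not cover pairing across numbers, which was not tested. No named difference was reversed under any alternative in which its probe set was tested, and of 60 genes followed 26 were called in all of them. The cause of these shifts was not tested.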

Other observations

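Unnamed probe sets held some of the largest differences. Probe set 265248_at read 3.90, 3.13 and 3.33 in cct-1 and 8.30, 7.71 and 7.80 in gct-2 (difference -4.48, SE 0.38, limma adjusted p = 0.00126), at least 2.11-fold, and 254098_at read 5.29, 6.38 and 6.56 against 9.92, 10.23 and 11.04 (-4.32, SE 0.38, adjusted p = 0.00159), at least 11.6-fold. In the other direction 250099_at read 7.41, 7.61 and 6.93 in cct-1 against 5.45, 4.99 and 5.32 (2.06, adjusted p = 0.00519), at least 1.39-fold, and 252123_at read 10.30, 10.48 and 10.55 against 8.82, 9.09 and 8.46 (1.65, adjusted p = 0.0102). The wild-type means of the 4 were 6.41, 8.65, 5.63 and 9.57.

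TRY, a small MYB protein that keeps epidermal cells from becoming trichomes, was dim throughout and read 6.59, 5.54 and 6.18 in cct-1, 5.14, 4.93 and 5.10 in gct-2 and 5.27, 5.38 and 5.34 in wild type (difference 1.05, SE 0.22, limma adjusted p = 0.036). Among fits with 1 array left out its call was kept only without wild-type replicate 1 or cct-1 replicate 2, and it was lost with the 6 mutant arrays alone.

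Around the mutated genes, ULP1B (0.51), GT72B1 (0.90) and AT4G01990 (0.94) near CCT were higher in cct-1. GT72B1, which was not dim, read 8.32, 8.57 and 8.32 in cct-1, 7.70, 7.20 and 7.61 in gct-2, and 8.85 on average in wild type. Near GCT, AT1G54290 (0.49), AT1G54790 (0.78) and AT1G55820 (0.64) were higher in cct-1 along with ICDH, and AT1G55000 (-0.52) and AT1G56300 (-0.93) were lower. AT1G56300, also not dim, read 10.37, 10.36 and 10.07 in cct-1 and 11.25, 11.20 and 11.15 in gct-2. Linked differences in the stretch around each mutated gene were not tested.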
